A study of Rattus norvegicus with 6 samples.

Results

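The mitochondrial ribosomal protein genes are the nuclear genes whose products build the ribosome inside mitochondria. They were taken as every gene whose symbol is Mrpl (large subunit) or Mrps (small subunit) followed by a number and at most 1 letter. The table of this study held 72 such rows among 30452, and 71 symbols, because Mrpl42 had 2 rows that were summed. Of the 71, 42 were large subunit symbols and 29 small subunit symbols. A further 3 rows, mrpl9, mrpl11 and mrpl24, are written with a small first letter in the table, and the symbol rule did not take them. RNA was sequenced from the myocardium of wild-type male rats in 2 groups of 3 samples. In the I/R group the left anterior descending coronary artery was tied off for 30 min and reopened, and the heart was taken 6 h later. The sham group is marked with the same times in the labels, which do not give the strain, the age or the region of the heart. The I/R samples were compared with the sham samples to learn how the transcripts of this ribosome, and of its 2 subunits, stood after reperfusion.

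The mitochondrial ribosome translates the few mRNAs encoded in mitochondrial DNA, all of which specify subunits of the oxidative phosphorylation complexes. Its ribosomal RNAs are made inside the organelle, whereas its proteins are encoded in the nucleus, translated in the cytosol and imported. Some of these proteins descend from those of bacterial ribosomes and others were added during the evolution of mitochondria. Cardiomyocytes are packed with mitochondria, and inherited defects in several of these genes cause cardiomyopathy.

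The 5 promoters that follow belong to the members of the S18 family, of whose 3 genes 2 were called higher, to Mrpl12, which had the largest difference, and to Mrpl17, which carries an NRF1 match. They were read from RefSeq on build GRCr8, 5′ to 3′ on the strand of the gene, and the transcription start is the 8th letter from the end. Capitals mark the motif matches described further on, which are GCGCA, any 1 base and GCGC for NRF1, CCGGAAG for the ETS family and AAGATGGC for YY1, or their reverse complements.
Mrps18a (chr9:22367373-22367530, - strand): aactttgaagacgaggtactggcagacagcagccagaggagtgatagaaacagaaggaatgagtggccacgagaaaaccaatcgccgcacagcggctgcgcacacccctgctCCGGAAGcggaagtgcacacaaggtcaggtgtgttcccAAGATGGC
Mrps18b (chr20:2842856-2843013, + strand): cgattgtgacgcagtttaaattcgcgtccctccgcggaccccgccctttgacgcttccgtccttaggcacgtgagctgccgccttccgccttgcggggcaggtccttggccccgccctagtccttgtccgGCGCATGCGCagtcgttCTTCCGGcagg
Mrps18c (chr14:9122899-9123056, - strand): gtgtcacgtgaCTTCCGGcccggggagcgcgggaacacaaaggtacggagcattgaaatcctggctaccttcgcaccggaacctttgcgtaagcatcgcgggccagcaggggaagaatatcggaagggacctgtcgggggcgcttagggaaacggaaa
Mrpl12 (chr10:106256596-106256753, + strand): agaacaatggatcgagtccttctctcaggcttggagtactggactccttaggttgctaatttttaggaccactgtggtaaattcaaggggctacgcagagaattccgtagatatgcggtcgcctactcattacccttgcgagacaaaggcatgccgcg
Mrpl17 (chr1:169575692-169575849, - strand): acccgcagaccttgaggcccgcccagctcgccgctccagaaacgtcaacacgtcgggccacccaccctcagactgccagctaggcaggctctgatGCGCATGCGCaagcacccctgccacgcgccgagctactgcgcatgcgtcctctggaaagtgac

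The values are FPKM, fragments counted per length of gene and per size of library, so that they can be set side by side between genes. Their sum over all genes was 894902 to 928941 in the sham samples and 731063 to 825490 in the I/R samples. FPKM carry no counts and the absolute depth is unknown, but low values moved in whole steps, and these placed the depth of the samples between 0.873 and 1.18 times that of sham replicate 1. The 13 mRNAs encoded in mitochondrial DNA took 80.1% to 86.2% of the summed FPKM in the sham samples and 61.8% to 71.5% in the I/R samples. Because FPKM are shares of a library, the values of all other genes depend on that share. Changes were tested on log2(FPKM + 0.1) with limma over 10942 genes with a mean of at least 0.5 FPKM, and a gene was called higher or lower at a Benjamini-Hochberg adjusted p under 0.05. The labels do not say that each sample came from its own rat, and the p-values measure only the spread between these samples. The tissue is a mixture of cell types, in which fewer cells of a type and less RNA per cell cannot be told apart.

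Transcripts of the mitochondrial ribosome were higher after ischemia and reperfusion across both subunits. Of 69 members tested, 63 were called higher, none was called lower, at an unadjusted p under 0.05 in limma either, and 6 were not called. The size and the sign of the change depended on the scaling of the libraries, as set out further on. Without the mitochondrially encoded mRNAs 28 members were called higher, against 7.06% of all genes, and under quantile normalization 28, against 13.2%. With the libraries centred on cardiomyocyte markers, none was called higher and 21 were called lower, against 80.7% of all genes called lower. These markers themselves had a median log2 fold change of 2.10. In the reported fit, 25.5% of all genes tested were called higher and 7.36% lower, 32.9% in either direction. The median log2 fold change of the members was 1.36, and it was 0.29 over all genes. The log2 fold changes of the members ran from −0.034 to 2.22, with the middle 50% between 1.10 and 1.65. They were above 0 for 68 members, above 1 for 58 and above 2 for 5. Every I/R value lay above every sham value in 65 members, against 37.2% of all genes tested. The exact permutation test, which cannot give less than p = 0.1 with 3 samples against 3, gave p = 0.1 for each of these. Members are mostly genes of middle expression, and genes with a mean between 5 and 50 FPKM were called higher more often than genes as a whole, in 43.0% of 3290 with a median log2 fold change of 0.63. Within this range 58 of 62 members were called higher, with a median of 1.37.

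**Figure D1:**
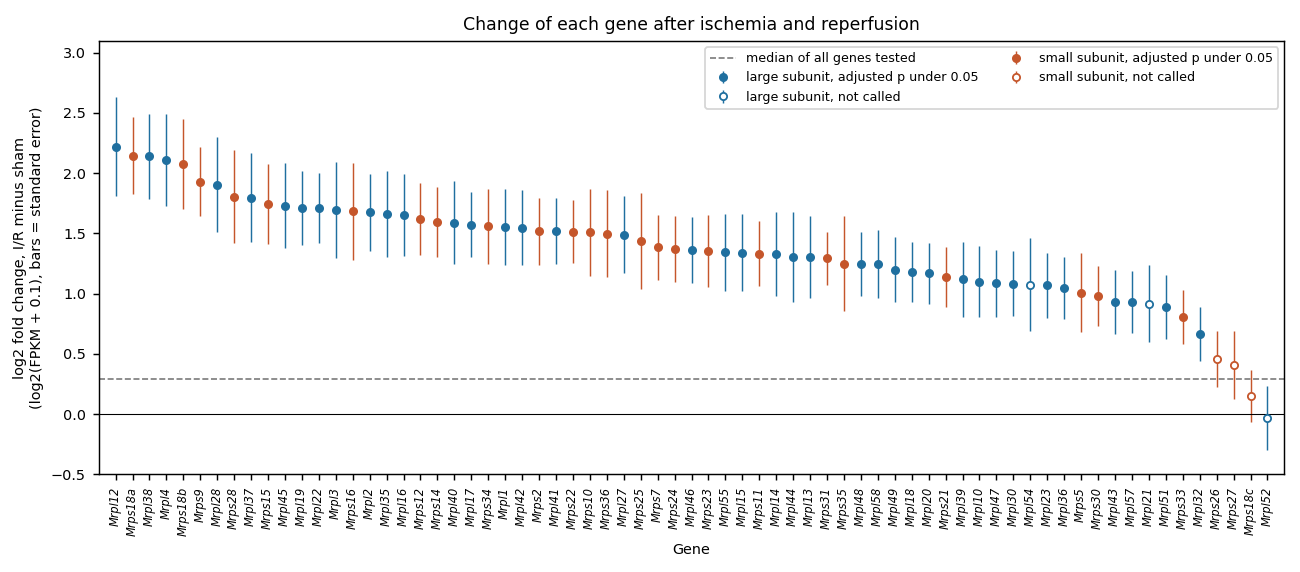
Log2 fold change (I/R against sham, log2(FPKM + 0.1) scale) of each of the 69 members, sorted, with the standard error from limma. Filled points were called at an adjusted p under 0.05, open points were not, colours give the subunit and the dashed line is the median of all genes tested, 0.29. The members form a continuous slope from −0.034 to 2.22 in which the colours are mixed.

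On the scale of levels, the median over the members of their mean FPKM was 8.36 in the sham group and 21.6 in the I/R group. Group means ran from 1.10 to 102.7 FPKM among the sham samples and from 1.79 to 189.6 FPKM among the I/R samples. The sham mean was below 5 FPKM for 17 members, between 5 and 20 FPKM for 41 and at 20 FPKM or more for 11. Level and change were only loosely related over the members (Spearman 0.19 across genes, which are not independent). The summed FPKM of the 69 members was 1206, 650.1 and 617.2 in the sham group and 2555, 1850 and 1813 in the I/R group, here and throughout in the order of replicates 1 to 3. All I/R sums were above all sham sums, and replicate 1 was the highest in each group.

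**Figure D2:**
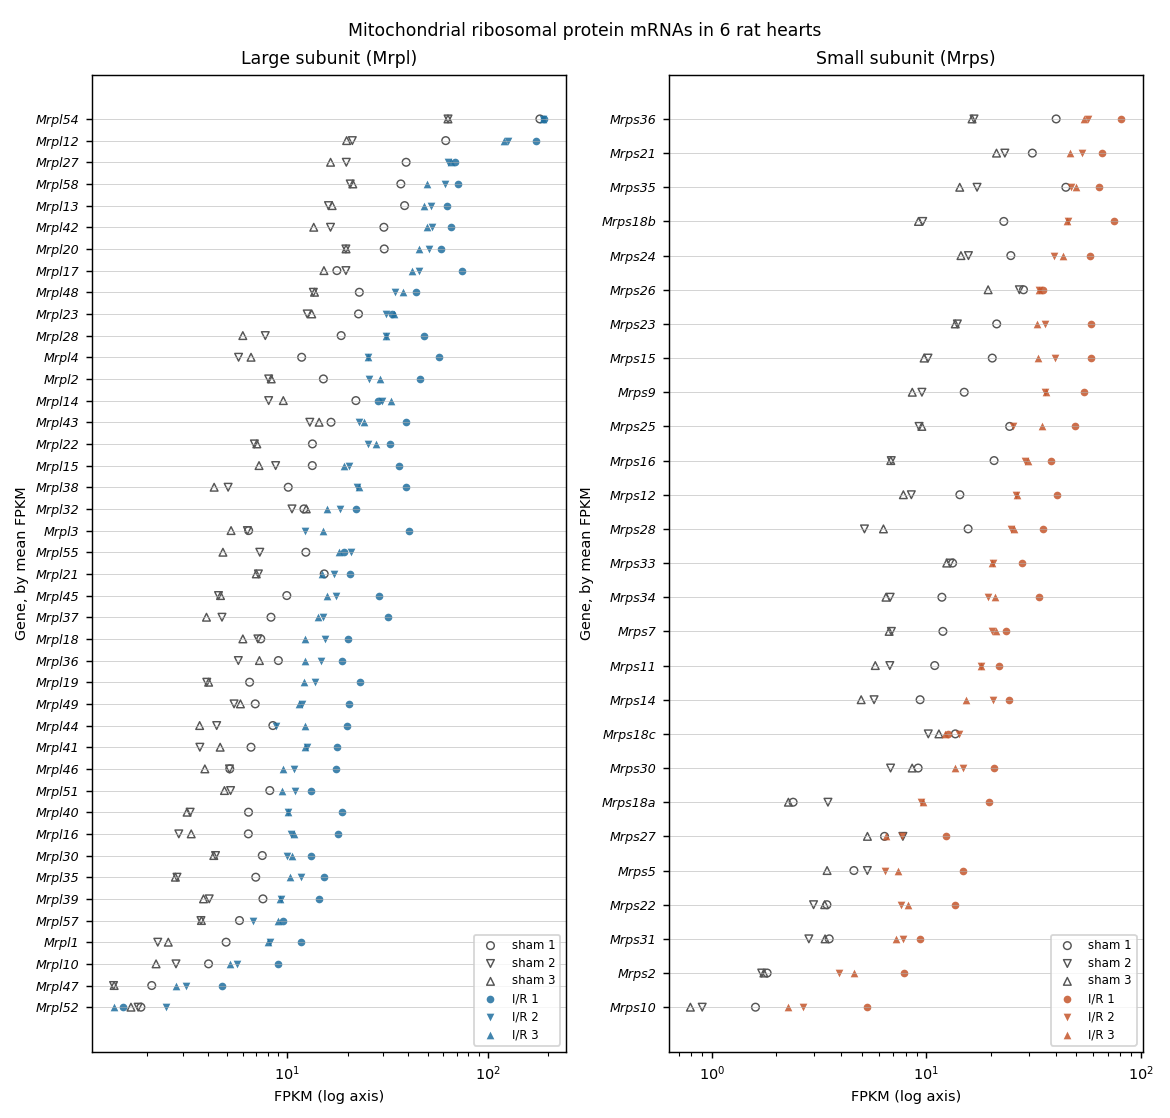
FPKM (log axis) of each of the 69 members in the 6 samples, sorted by level, with large subunit genes in blue, small subunit genes in orange, sham samples as open markers and I/R samples as filled ones. The groups separate in 65 of the 69 genes, and the levels extend from about the floor of the filter to the 189.6 FPKM mean of Mrpl54 in the I/R group.

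The 2 subunits moved by like amounts. Of the 42 large subunit genes, 39 were called higher, and of the 27 small subunit genes tested, 24 were called higher. Their median log2 fold changes were 1.34 and 1.44, a difference of −0.10. Counted per sample, the mean log2 level of the large subunit minus that of the small subunit was 0.026, −0.129 and −0.085 in the sham samples and −0.077, −0.027 and −0.062 in the I/R samples. These overlapping values gave −0.063 ± 0.080 in the sham group and −0.055 ± 0.026 in the I/R group (SD, n = 3 each). Symbols do not always name the subunit in which a protein sits. With Mrps30 and Mrps18a moved to the large subunit, where the structures place their products, and Mrps36 left out, the difference of levels was −0.110 ± 0.044 in the sham group and −0.070 ± 0.020 in the I/R group (SD, n = 3 each).

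Proteins with bacterial counterparts and proteins specific to mitochondria were both higher. In the large subunit, 24 of 25 conserved members were called higher, with a median log2 fold change of 1.34, and so were 17 of 19 mitochondria-specific members, with a median of 1.25. In the small subunit, the counts were 13 of 14 conserved members, with a median of 1.51, and 8 of 10 mitochondria-specific members, with a median of 1.32. In this grouping Mrps30 and Mrps18a are counted in the large subunit. It also counts Mrps18a and Mrps18b as specific to mitochondria and Mrps18c as conserved, although all belong to the S18 family. The differences between the 4 classes were not tested.

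The stalk of the large subunit recruits the translation factors to the ribosome, and it held the member with the largest change. Mrpl12 (ENSRNOG00000036695), the repeated protein of the stalk, measured 61.6, 21.1 and 19.7 FPKM in the sham group and 173, 126 and 120.1 FPKM in the I/R group. Sham replicate 1 lay between the other sham samples and the I/R samples, and the groups did not overlap. Mrpl12 rose 4.09-fold by group means (log2 fold change 2.22, standard error 0.41, adjusted p = 0.0053, limma). Mrpl10, which anchors the stalk to the ribosome, measured 4.05, 2.78 and 2.21 FPKM in the sham group and 8.95, 5.61 and 5.18 FPKM in the I/R group. It was expressed at a far lower level than Mrpl12 in every sample, and its groups did not overlap either. Mrpl10 rose by 1.10 on the log2 scale (standard error 0.30, adjusted p = 0.019, limma). Its call was lost without sham replicate 2, sham replicate 3 or I/R replicate 1 (limma adjusted p of 0.067, 0.079 and 0.057) and without the filter (0.053), and its log2 fold change was 0.33 without the mitochondrially encoded mRNAs. The third gene of this region is written mrpl11 in the table, outside the symbol rule, and its log2 fold change was 1.20 (adjusted p = 0.019, limma).

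The ring around the exit of the peptide tunnel, where the new chain leaves the ribosome and meets the inner membrane, was higher in all 5 members tested, with a median log2 fold change of 1.57. Mrpl45, which helps to fix the ribosome to the membrane, measured 9.94, 4.54 and 4.64 FPKM in the sham group and 28.8, 17.5 and 15.8 FPKM in the I/R group. The lowest I/R sample exceeded the highest sham sample, which was replicate 1, and the change passed the test (log2 fold change 1.73, standard error 0.35, adjusted p = 0.0072, limma). Mrpl22, a bacterial homologue that also lines the tunnel, measured 13.3, 6.85 and 7.04 FPKM in the sham group and 32.7, 25.3 and 27.8 FPKM in the I/R group. Its I/R samples lay close together and well above the sham samples (log2 fold change 1.71, standard error 0.29, adjusted p = 0.0042, limma). Mrpl17, whose promoter holds the NRF1 match shown above, measured 17.7, 19.6 and 15.2 FPKM in the sham group and 73.9, 45.6 and 41.7 FPKM in the I/R group. It was one of the few members in which sham replicate 1 was not the highest sham sample, and the 3 sham values were close (log2 fold change 1.57, standard error 0.27, adjusted p = 0.0042, limma). Another gene of the ring is written mrpl24, outside the symbol rule, and is given further on. Mrpl23 and Mrpl47, the remaining members of the ring tested, changed less. Mrpl23 measured 22.6, 12.6 and 13.2 FPKM in the sham group and 33.4, 31.0 and 33.9 FPKM in the I/R group. Its I/R values were almost equal and all above the sham values (log2 fold change 1.07, standard error 0.27, adjusted p = 0.015, limma). Mrpl47 measured 2.11, 1.36 and 1.37 FPKM in the sham group and 4.74, 3.13 and 2.80 FPKM in the I/R group. These were among the lowest levels of all members, yet the groups were apart (log2 fold change 1.09, standard error 0.28, adjusted p = 0.016, limma). Both genes lost their call without sham replicate 2 or 3, with limma adjusted p between 0.061 and 0.064.

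The central protuberance, the crown of the large subunit that faces the small one, was higher in all 4 of its members on the list, with a median log2 fold change of 1.48. Mrpl38 stood out among them and measured 10.1, 5.07 and 4.31 FPKM in the sham group and 39.1, 22.3 and 22.7 FPKM in the I/R group. Each I/R sample was more than 2-fold above every sham sample (log2 fold change 2.14, standard error 0.35, adjusted p = 0.0037, limma). Mrpl40 measured 6.40, 3.28 and 3.16 FPKM in the sham group and 18.6, 10.1 and 10.1 FPKM in the I/R group. Replicate 1 was the highest in both groups and the groups did not overlap (log2 fold change 1.59, standard error 0.34, adjusted p = 0.0086, limma). Mrpl46 measured 5.16, 5.14 and 3.88 FPKM in the sham group and 17.6, 10.8 and 9.55 FPKM in the I/R group. The sham values lay within a narrow range and the I/R values were all higher (log2 fold change 1.36, standard error 0.28, adjusted p = 0.0070, limma). Mrpl48, the most abundant of the 4 by transcript level, measured 22.9, 13.5 and 13.7 FPKM in the sham group and 43.8, 34.5 and 37.7 FPKM in the I/R group. Its I/R samples were above its sham samples by a smaller margin (log2 fold change 1.25, standard error 0.27, adjusted p = 0.0084, limma).

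Among the other large subunit genes, Mrpl4, Mrpl28 and Mrpl37 completed the 5 largest changes. Mrpl4, a homologue of the bacterial protein that reaches into the peptide tunnel, measured 11.8, 5.71 and 6.59 FPKM in the sham group and 57.3, 25.3 and 25.4 FPKM in the I/R group. The I/R samples were all at least 2-fold above the highest sham sample, and I/R replicate 1 was more than 2-fold above the other I/R samples (log2 fold change 2.11, standard error 0.38, adjusted p = 0.0048, limma). Mrpl28, also of bacterial descent, measured 18.5, 7.76 and 6.00 FPKM in the sham group and 48.1, 31.1 and 31.0 FPKM in the I/R group. The groups were apart, with replicate 1 highest in each (log2 fold change 1.90, standard error 0.39, adjusted p = 0.0076, limma). Mrpl37, a protein specific to mitochondria, measured 8.29, 4.72 and 3.95 FPKM in the sham group and 31.7, 15.0 and 14.2 FPKM in the I/R group. Here too the groups were apart and I/R replicate 1 was the highest of the 6 samples (log2 fold change 1.80, standard error 0.37, adjusted p = 0.0075, limma). Mrpl27, of bacterial descent and among the 3 most abundant large subunit transcripts, measured 39.1, 19.7 and 16.4 FPKM in the sham group and 68.7, 63.0 and 65.1 FPKM in the I/R group. Its I/R values were nearly level, whereas its sham values spread over more than 2-fold (log2 fold change 1.49, standard error 0.32, adjusted p = 0.0085, limma).

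Mrpl54 had the highest level of any member and was not called. This mitochondria-specific protein of the large subunit measured 182, 63.3 and 63.2 FPKM in the sham group and 191, 189 and 189 FPKM in the I/R group. Sham replicate 1 was close to the I/R samples, and the other two sham samples were far below them, so that the groups were apart by a narrow margin. The log2 fold change was 1.08, with a standard error of 0.39 and an adjusted p of 0.057 in limma. The limma adjusted p was 0.019 when the replicate number was fitted as a block. It was also called at a mean of at least 5 FPKM, under TPM and without sham replicate 1 (limma adjusted p of 0.047, 0.027 and 0.0012). Mrpl21, of bacterial descent, gained its call under the same alternatives. It measured 15.3, 7.17 and 7.0 FPKM in the sham group and 20.5, 17.1 and 14.9 FPKM in the I/R group. Sham replicate 1 lay within the I/R range, so the groups overlapped. Its log2 fold change was 0.91, with a standard error of 0.32, an adjusted p of 0.051 without and 0.012 with the block in limma. It was 0.033 at a mean of at least 5 FPKM, 0.029 under TPM and 0.0056 without sham replicate 1. Mrpl52, a small mitochondria-specific protein, was the only member tested with a log2 fold change below 0, which turned to 0.15 when the values were rescaled to TPM. It measured 1.86, 1.80 and 1.66 FPKM in the sham group and 1.52, 2.49 and 1.36 FPKM in the I/R group. Both groups covered the same low range (log2 fold change −0.034, standard error 0.27, adjusted p = 0.93, limma).

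In the small subunit, the largest changes after those of the S18 family were in Mrps9, Mrps28 and Mrps15. Mrps9, a conserved protein of the head of the subunit, measured 15.0, 9.53 and 8.6 FPKM in the sham group and 54.3, 35.6 and 36.0 FPKM in the I/R group. The lowest I/R sample was more than 2-fold above the highest sham sample (log2 fold change 1.93, standard error 0.29, adjusted p = 0.0031, limma). Mrps28, a homologue of bacterial S1, measured 15.7, 5.15 and 6.31 FPKM in the sham group and 35.0, 24.9 and 25.6 FPKM in the I/R group. Sham replicate 1 was more than 2-fold above the other sham samples and still below every I/R sample (log2 fold change 1.80, standard error 0.38, adjusted p = 0.0083, limma). Mrps15, a conserved protein that binds the ribosomal RNA early in assembly, measured 20.3, 10.2 and 9.76 FPKM in the sham group and 58.4, 39.8 and 33.2 FPKM in the I/R group. The groups were apart and replicate 1 was the highest in both (log2 fold change 1.74, standard error 0.33, adjusted p = 0.0058, limma).

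The most abundant small subunit transcripts were those of Mrps36, Mrps21 and Mrps35. Mrps36, whose product is now known as a subunit of the 2-oxoglutarate dehydrogenase complex rather than of the ribosome, measured 40.3, 16.7 and 16.3 FPKM in the sham group and 80.8, 56.9 and 54.2 FPKM in the I/R group. It was called higher like most members, and its groups did not overlap (log2 fold change 1.5, standard error 0.36, adjusted p = 0.013, limma). The limma adjusted p was 0.064 without sham replicate 2 and 0.051 without sham replicate 3. Mrps21, of bacterial descent, measured 31.2, 23.2 and 21.2 FPKM in the sham group and 65.6, 53.3 and 46.9 FPKM in the I/R group. Its sham values were closer to each other than those of Mrps36, and all lay below the I/R values (log2 fold change 1.14, standard error 0.25, adjusted p = 0.0090, limma). Mrps35, specific to mitochondria, measured 44.7, 17.2 and 14.3 FPKM in the sham group and 63.4, 47.3 and 49.7 FPKM in the I/R group. Sham replicate 1 came within a few FPKM of the lowest I/R sample (log2 fold change 1.25, standard error 0.39, adjusted p = 0.035, limma). The call was kept only without sham replicate 1 and was lost without any other single sample, with limma adjusted p between 0.054 and 0.13. Mrps30, which the structures place in the large subunit, measured 9.15, 6.81 and 8.59 FPKM in the sham group and 20.7, 14.8 and 13.6 FPKM in the I/R group. All I/R values were above all sham values (log2 fold change 0.98, standard error 0.25, adjusted p = 0.015, limma), and the adjusted p was 0.061 in limma without sham replicate 2.

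In the S18 family, 2 of the 3 genes were called higher. Bacteria have a single S18 protein and mammals have 3, of which those of Mrps18b and Mrps18c sit in the small subunit and that of Mrps18a in the large one. Mrps18a (ENSRNOG00000019511) measured 2.39, 3.48 and 2.27 FPKM in the sham group and 19.6, 9.45 and 9.66 FPKM in the I/R group. Every I/R sample was more than 2-fold above every sham sample, and sham replicate 1 was not the highest of its group (log2 fold change 2.15, standard error 0.32, adjusted p = 0.0031, limma). Mrps18b (ENSRNOG00000000804) measured 23.0, 9.62 and 9.19 FPKM in the sham group and 74.7, 45.9 and 45.4 FPKM in the I/R group. All I/R samples were again well above all sham samples, though at a level several times that of Mrps18a (log2 fold change 2.08, standard error 0.37, adjusted p = 0.0047, limma). Mrps18c (ENSRNOG00000002178) measured 13.6, 10.2 and 11.4 FPKM in the sham group and 12.6, 14.1 and 12.3 FPKM in the I/R group. These 6 values lay within a narrow band in which the groups overlapped (log2 fold change 0.15, standard error 0.22, adjusted p = 0.62, limma). The ratio of Mrps18a to Mrps18c was 0.175, 0.341 and 0.199 in the sham samples and 1.56, 0.668 and 0.788 in the I/R samples. The ratio of Mrps18b to Mrps18c was 1.68, 0.942 and 0.803 in the sham samples and 5.92, 3.25 and 3.70 in the I/R samples. Both ratios were higher in every I/R sample than in any sham sample (exact permutation test, p = 0.1, the smallest this design allows), and being ratios within a sample they do not depend on any scaling by 1 factor per sample. The ratio of Mrps18a to Mrps18b overlapped between the groups (exact permutation test, p = 0.9). Mrps18c was above Mrps18b in 2 of the 3 sham samples and below it in all I/R samples. This family was examined because of its names, and its contrast was chosen for description with the values known.

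The other small subunit genes that were not called were Mrps26 and Mrps27, which were named after their values had been seen. Mrps26, specific to mitochondria, measured 28.4, 27.1 and 19.4 FPKM in the sham group and 34.9, 33.3 and 33.3 FPKM in the I/R group. The I/R values were all slightly above the sham values, and the difference did not pass the test (log2 fold change 0.46, standard error 0.23, adjusted p = 0.15, limma). Mrps27, an RNA-binding protein of the pentatricopeptide repeat family, measured 6.38, 7.77 and 5.31 FPKM in the sham group and 12.3, 7.74 and 6.49 FPKM in the I/R group. The groups overlapped, and I/R replicate 1 stood above the other 5 samples (log2 fold change 0.40, standard error 0.28, adjusted p = 0.29, limma). Mrps17 and Mrps21l were below the filter and were not tested. Mrps17 was listed at 0 in I/R replicate 3 and between 0.0126 and 0.158 FPKM in the other samples, and Mrps21l was listed at 0 in all samples but sham replicate 2, where it was at 0.0778 FPKM.

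All 3 genes on the list of those whose inherited defects are known to cause cardiomyopathy were called higher. Mrpl3, which lies near the catalytic centre, measured 6.41, 6.32 and 5.24 FPKM in the sham group and 40.5, 12.2 and 15.0 FPKM in the I/R group. Its sham values were almost equal and I/R replicate 1 was far above the other I/R samples, with a ratio of 2.97 to their mean that was the largest of any member (log2 fold change 1.69, standard error 0.40, adjusted p = 0.012, limma). Mrpl44, which has the fold of a ribonuclease III, measured 8.47, 4.44 and 3.65 FPKM in the sham group and 19.9, 8.81 and 12.3 FPKM in the I/R group. Its lowest I/R sample was only just above sham replicate 1 (log2 fold change 1.31, standard error 0.37, adjusted p = 0.024, limma). The call was lost without sham replicate 2, sham replicate 3 or I/R replicate 1 (limma adjusted p of 0.093, 0.089 and 0.077), without the filter (0.070) and when centred on the median (0.063). Mrps22, a mitochondria-specific protein of the small subunit, measured 3.44, 2.98 and 3.36 FPKM in the sham group and 13.6, 7.63 and 8.21 FPKM in the I/R group. The sham values were within a narrow range and well below the I/R values (log2 fold change 1.52, standard error 0.26, adjusted p = 0.0043, limma).

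The replicates numbered 1 stood above the others of their group across the members. Sham replicate 1 was the highest sham sample in 64 of 69 members (92.8%), against 27.8% of all genes tested, and I/R replicate 1 was the highest I/R sample in 64 of 69 (92.8%), against 58.3% of all genes tested. The ratio of sham replicate 1 to the mean of the other sham samples had a median of 1.75 over the members, from 0.832 for Mrps18a to 3.02 for Mrps16, and a median of 0.913 over all genes. The ratio of I/R replicate 1 to the mean of the other I/R samples had a median of 1.45 over the members, from 0.789 for Mrpl52 to 2.97 for Mrpl3, and a median of 1.18 over all genes. The ratios of the members in the sham samples and in the I/R samples were only loosely related (Spearman −0.17 across genes). Without sham replicate 1, 63 members were called higher (23.4% of all genes) and the median log2 fold change was 1.65. Without I/R replicate 1 these were 52 (18.9% of all genes) and 1.20, and without both, an alternative added after the data were seen, 63 (24.1% of all genes) and 1.45. Sham replicate 2 weighed most on the count, which fell to 39 without it (17.5% of all genes). In the blocked fit, 65 members and 28.2% of all genes were called higher, and at an adjusted p under 0.01 (limma) 37 members and 10.8% of all genes. In all 6 fits that each left out 1 sample, 39 members were called higher. The same joint count was not made over all genes. It cannot exceed 1528 of 10942, the fewest genes called higher in any of these fits.

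Other genes of the same machinery were grouped in lists by function. The translation factors of mitochondria were called higher in 8 of 16, with a median log2 fold change of 0.81 and none lower. The largest changes were in Tufm, the factor that brings aminoacyl-tRNA to the ribosome, at 2.35 (adjusted p = 0.0046, limma), in Tsfm, which recharges it, at 2.22 (adjusted p = 0.0037, limma), and in Lrpprc, which stabilizes mitochondrial mRNAs, at 1.95 (adjusted p = 0.0052, limma). Factors that assemble or modify the ribosome were called higher in 6 of 21, close to the share of all genes, with none lower and a median of 0.58. They were led by Rbfa, which helps to mature the small subunit, at 1.90 (adjusted p = 0.0042, limma), by the ribosomal RNA methyltransferase Mrm2 at 1.51 (adjusted p = 0.013, limma), and by Malsu1, which acts on the large subunit, at 1.36 (adjusted p = 0.0064, limma). Ribosomal proteins that carry other symbols were called higher in 2 of 5, Gadd45gip1 at 1.51 (adjusted p = 0.0070, limma) and Chchd1 at 1.20 (adjusted p = 0.0067, limma). Dap3, a GTP-binding protein of the small subunit, had a log2 fold change of 0.77 (adjusted p = 0.051, limma). Of the symbols written in lower case, mrpl24 was called at 1.62 (adjusted p = 0.0074, limma) beside mrpl11, and mrpl9 was at 0.46 (adjusted p = 0.16, limma).

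The genes that transcribe and package mitochondrial DNA were called higher in 3 of 8, with none lower and a median of 0.65. These were Tefm, the elongation factor of the mitochondrial RNA polymerase, at 1.51 (adjusted p = 0.013, limma), Ssbp1, which binds single-stranded DNA, at 0.88 (adjusted p = 0.013, limma), and Tfam, which compacts the genome and starts transcription, at 0.84 (adjusted p = 0.026, limma). Of nuclear regulators known to act on genes of mitochondrial proteins, 3 of 8 were called higher and none lower, with a median of 0.43. Myc was at 3.18 (adjusted p = 3.2e-04, limma), the coactivator Ppargc1a at 1.84 (adjusted p = 0.0032, limma) and its relative Pprc1 at 1.31 (adjusted p = 0.0061, limma). The factors whose motifs are given here were not called, with log2 fold changes of 0.42 (adjusted p = 0.32, limma) for Nrf1, −0.072 (adjusted p = 0.84, limma) for Gabpa, an ETS factor, and 0.26 (adjusted p = 0.40, limma) for Yy1.

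Set beside other ribosomal and mitochondrial genes, the members were near the nuclear subunits of oxidative phosphorylation and apart from the proteins of the cytosolic ribosome. Of 72 nuclear subunits of oxidative phosphorylation, 62 were called higher and none lower, with a median log2 fold change of 1.59. The largest of them was in Ndufb6, a subunit of complex I, at 2.87 (adjusted p = 0.0033, limma). Of 67 cytosolic ribosomal proteins, 8 were called higher and none lower, with a median of 0.32 that was close to that of all genes, the largest being Rps2 at 1.0 (adjusted p = 0.010, limma). Of the 13 mRNAs that the mitochondrial ribosome translates, none was called higher and 2 were called lower, with a median of −0.52. These 2 were Mt-nd3 at −1.03 (adjusted p = 0.024, limma) and Mt-nd6 at −1.0 (adjusted p = 0.037, limma), both encoding subunits of complex I. All 13 had log2 fold changes below 0. The summed FPKM of these mRNAs was 598, 1171 and 1297 times that of the members in the sham samples and 177, 317 and 325 times in the I/R samples. The ratio was lower in every I/R sample than in any sham sample, with replicate 1 the lowest in each group. All these lists were read from the same fit and share the same 6 samples, and the differences between lists were not tested.

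**Figure D3:**
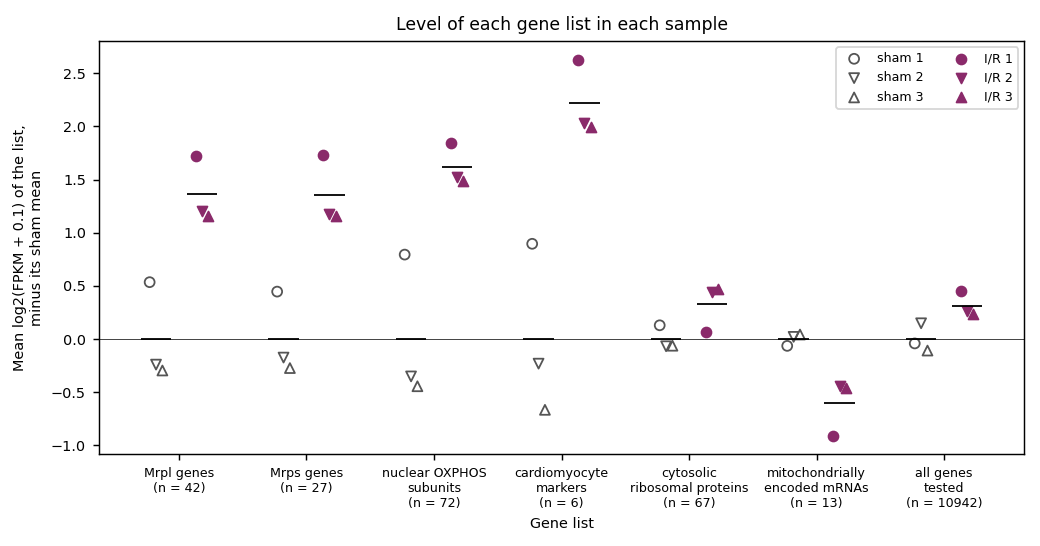
Mean log2(FPKM + 0.1) of the genes of each list in each sample, minus the mean of the 3 sham samples for that list. The members, the nuclear subunits of oxidative phosphorylation and the cardiomyocyte markers lie higher in the I/R samples. These lists and the cytosolic ribosomal proteins put replicate 1 highest among the sham samples. The cytosolic ribosomal proteins stay near 0 by comparison and the 13 mitochondrially encoded mRNAs lie below 0 in the I/R samples.

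Markers of cardiomyocytes moved with the members. Of 6 cardiomyocyte markers found and tested, 5 were called higher, with a median log2 fold change of 2.10, and their summed FPKM was 3219 to 10510 in the sham samples and 21170 to 30371 in the I/R samples. Sham replicate 1 was the highest sham sample by this sum as well. The mean log2 level of the members minus that of these markers was −5.36 ± 0.39 in the sham group and −6.22 ± 0.037 in the I/R group (SD, n = 3 each), so that the distance from members to markers was wider in every I/R sample than in any sham sample. Of 6 fibroblast markers 1 was called higher, with summed FPKM of 416 to 574 in the sham samples and 590 to 653 in the I/R samples. None of 6 endothelial markers was called, with sums of 143 to 188 and 153 to 181 FPKM. Of 6 neutrophil and monocyte markers tested, 3 were called higher (S100a8, S100a9 and Cd14) and 3 were not called, with sums of 52.1 to 67.4 and 78.5 to 143 FPKM. The log2 fold changes of these 6 ran from −0.84 to 1.89 and were above 0 for 5. The single red blood cell marker found, Hba-a2, and 3 smooth muscle markers were not called. No marker found was at 0 in any sample. The part of these markers in the changes of the members was not tested.

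The size of the change and its direction depended on how the libraries were scaled. When the values were rescaled over all genes other than the 13 mitochondrially encoded mRNAs, 28 members were called higher and none lower, with a median log2 fold change of 0.59, while the median of all genes moved from 0.29 to −0.48 and 7.06% of all genes were called higher. Under quantile normalization 28 members were called higher and none lower, with a median of 0.71 and a median of all genes of −0.022, and 13.2% of all genes were called higher. Centred on the median, 51 members were called higher, with a median of 1.11, and 18.5% of all genes were. Centred on the 6 cardiomyocyte markers, no member was called higher and 21 were called lower, with all 69 log2 fold changes below 0 and a median of −0.86, where the median of all genes was −1.93 and 80.7% of all genes were called lower. The median of the members stood 1.07 above the median of all genes on the log2 scale as reported and 0.74 above it under quantile normalization. The rescalings and centrings multiply all values of a sample by 1 factor and so could not change this distance, apart from the filter and the added 0.1. Among the genes named here, Mrpl10, Mrpl23, Mrpl44, Mrpl46, Mrpl47, Mrpl48, Mrps21, Mrps30, Mrps35 and Mrps36 lost their call without the mitochondrially encoded mRNAs, and Mrpl10, Mrpl23, Mrpl27, Mrpl44, Mrpl48, Mrps21, Mrps28, Mrps30, Mrps35 and Mrps36 lost it under quantile normalization. A total of 23 members were called higher as reported and under each of the other scalings except that on cardiomyocyte markers, 15 of them in the large subunit and 8 in the small. The same joint count was not made over all genes. It cannot exceed the 791 genes called higher without the mitochondrially encoded mRNAs. The 23 members included Mrpl12, Mrpl38, Mrpl4, Mrpl28, Mrpl37, Mrpl45, Mrpl22, Mrpl17, Mrpl40, Mrpl3, Mrps18a, Mrps18b, Mrps9, Mrps15 and Mrps22. The small subunit median was the higher as reported and under quantile normalization, where large minus small was −0.10 and −0.047. The settings that multiply a sample by 1 factor could not change this order of the medians. By mean log2 level the order was the opposite, with I/R minus sham at 1.36 for the large and 1.35 for the small subunit. With the subunits sorted by structure these were 1.37 and 1.33.

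**Figure D4:**
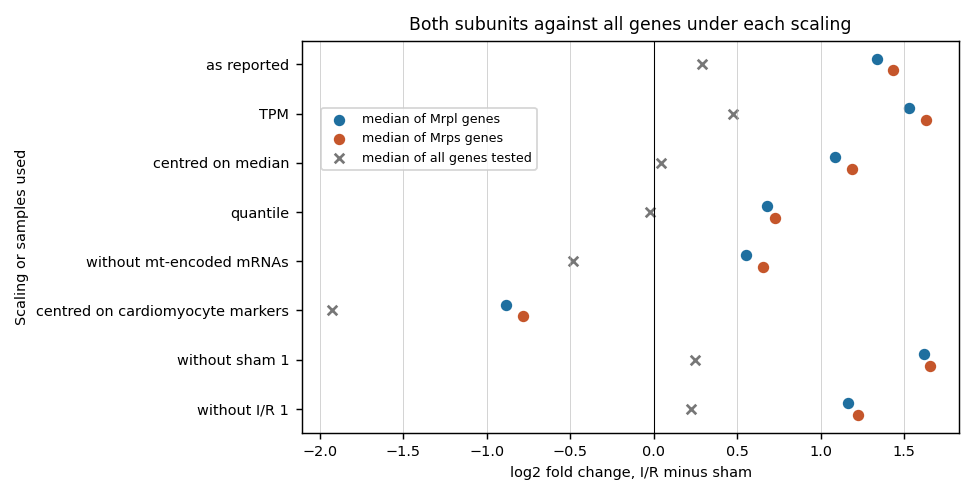
Median log2 fold change (I/R against sham) of the large subunit genes, the small subunit genes and all genes tested under 8 settings of the scaling or of the samples used. Both subunits lie at about 1.4 in the reported values and below 0 when the libraries are centred on cardiomyocyte markers, and settings that multiply a sample by 1 factor move both by the same amount.

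Promoters of the members were searched for the motifs of factors known to act on genes of mitochondrial proteins. RefSeq (GRCr8) gave a promoter of 300 bases, from 250 bases before the start to 50 after, for 55 of the 71 members. The NRF1 motif (GCGCA, any base, GCGC) was present on either strand in 9 of them (16.4%), the ETS motif CCGGAAG in 19 (34.5%) and the YY1 motif AAGATGGC in 13 (23.6%). The shares were 10.5%, 18.8% and 5.85% among the promoters of 8022 genes tested and 4.25%, 8.75% and 3.17% among all 33469 promoters of the same length. At least 1 of the 3 motifs was present in 30 members (54.5%), against 30.4% of the genes tested. The median GC content was 56.0% in the members and 61.3% in the genes tested. Among large subunit members 7, 11 and 7 of 34 held the NRF1, ETS and YY1 motif, and among small subunit members 2, 8 and 6 of 21. None of the 3 motifs contains another.

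Members with and without a motif match were set side by side by the median size of the change, and the differences were not tested. Members with an NRF1 match had a median log2 fold change of 1.31 and those without one 1.35. The medians were 1.17 and 1.38 with and without an ETS match, and 1.36 and 1.33 with and without a YY1 match. Mrpl52, Mrps18c, Mrps26 and Mrps27, the members with the smallest log2 fold changes, each held an ETS match. The uncalled Mrpl54 held none. Mrps18a, Mrps18b and Mrpl4, among the largest changes, held an ETS match as well. In the promoters printed above, Mrps18b held all 3 motifs, the YY1 match lying beyond the printed stretch, and Mrps18a held an ETS match at position −38 and a YY1 match that begins at the start site. Mrps18c held an ETS match at −139, farther from its start than those of its relatives. Mrpl12, with the largest change, held no match. A match is a description of the letters in this window and not a site of binding.

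Some members start near the start of a gene that runs the other way. Of the 55 members with a promoter entry, 17 (30.9%) had the start of an oppositely oriented gene within 1000 bases, against 11.4% of 8018 protein-coding genes tested. Mrpl46 and Mrps11 are each other's neighbours, with starts 234 bases apart, and log2 fold changes of 1.36 and 1.33. Of 15 neighbours tested, 6 were called higher and 2 were called lower. The count of those called higher includes Mrpl46 and Mrps11, which are themselves members and so raise it. The 2 called lower were Cyb5rl, beside Mrpl37, with a log2 fold change of −1.03 (adjusted p = 0.045, limma), and Pnpla7, beside Mrpl41, with −1.37 (adjusted p = 0.0058, limma). Ndufb5, beside Mrpl47, was at 1.47 (adjusted p = 0.0085, limma) and Ptcd2, beside the uncalled Mrps27, at 1.30 (adjusted p = 0.010, limma). Over the 15 neighbours of members, Mrpl46 and Mrps11 included, the log2 fold changes had a median of 0.22. Over the 670 tested neighbours of all genes the median was 0.38, and 28.7% of these were called higher.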

How the data were processed

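Total RNA was extracted from myocardial tissue with Trizol and made into stranded total RNA libraries, 3 per group. The authors deposited 1 table of FPKM values per gene and sample, which are scaled to gene length and library size. STAR and HTSeq appear in the submitters' processing notes without versions or roles. The genome build, the annotation and the total behind the scaling are not given in the sources used here, and genes that share sequence with a copy are uncertain. Columns were matched to samples by name, and 0 columns belonged to other samples. The table held no columns of the authors' own comparisons.

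Members were found by symbol, and rows of one symbol were summed. Members, lists and tests were chosen with earlier results of these data known. Log2(FPKM + 0.1) was fitted with limma 3.58.1 in R 4.3.3 (lmFit, eBayes with a trend) for 10942 genes whose mean was 0.5 FPKM or more, with Benjamini-Hochberg adjustment over all of them and a threshold of 0.05. Standard errors are those of limma's moderated fit. Single values were compared with two-sided exact permutation tests. The procedure was tested on simulated data. A fold change is on the log2(FPKM + 0.1) scale and understates changes of low genes. Relative depth came from genes of low expression, of which 83.6% of 2552 moved in whole steps (tolerance 0.05 of a step). The step of a gene was its own lowest nonzero value, and the depths were read from these same genes. This share is therefore no separate check of the depths.

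The genes named were the 5 largest positive changes in each subunit among called members with a mean of at least 1 FPKM, members with a change below 0, the 3 most abundant of each subunit, the stalk, exit site, central protuberance, S18 and cardiomyopathy lists, Mrps30 and Mrps36, and the largest called genes of each pathway list. Mrpl21, Mrps26 and Mrps27, and the genes beside a member's promoter, were named after their values were seen.

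The labels number the replicates of both groups. After subtraction of the group means, samples of the same number correlated at 0.20, 0.12 and 0.12 over 10942 genes. Sham replicate 3 and I/R replicate 2 each correlated more with a sample of another number in the opposite group. Neither the labels nor these values establish that the numbers pair the samples, and the reported fit does not use them. A second fit took the number as a block. The alternatives were pseudocounts of 1 and 0.01, no filter or a mean of at least 5 FPKM, TPM, centring on the median, quantile normalization, rescaling without mitochondrial mRNAs, centring on cardiomyocyte markers, no trend, the highest row of each symbol, a threshold of 0.01 and leaving out each sample. A background by protein length was not run, as no protein table was used here.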

Additional observations from a re-analysis of the deposited data

How the results depend on the processing

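Under other pseudocounts, other filters, TPM, no trend, the highest row of each symbol and the replicate block, the count of members called higher and the medians of both subunits moved by less than 1.5 times or less than the spread between replicates. The replicate block gave 65 members called higher (28.2% of all genes), adding Mrpl21 and Mrpl54 among the named genes and changing no other of their calls. At an adjusted p under 0.01 (limma), 37 members were called higher (10.8% of all genes). Leaving out 1 sample gave 39 to 63 members called higher, 0 called lower, medians of 1.20 to 1.65 for the members, 1.16 to 1.62 for the large and 1.22 to 1.65 for the small subunit, and a difference of subunit medians of −0.17 to −0.031. Over all genes these fits called 1528 to 2557 higher and 309 to 881 lower, with 309 without sham replicate 2 and 359 without sham replicate 3. Genes called lower numbered 166 at a mean of at least 5 FPKM, 527 under TPM and 1554 when centred on the median, and 77.6% of all calls were higher as reported, 86.8% under TPM, 56.5% when centred on the median, 91.9% at a mean of at least 5 FPKM, 48.0% under quantile normalization, 20.8% without mitochondrial mRNAs and 0.406% when centred on cardiomyocyte markers. Without mitochondrial mRNAs, 28 members were called higher, the medians were 0.59 for members, 0.56 for the large and 0.65 for the small subunit, and 791 genes were called higher and 3010 lower. Under quantile normalization these were 28, 0.71, 0.68, 0.72, 1441 and 1559. Centred on cardiomyocyte markers, 0 members were called higher and 21 lower, the medians were −0.86, −0.89 and −0.79, and 36 genes were called higher and 8827 lower. That centring subtracts the same amount from every gene, and the log2 fold changes became −1.12 for Mrpl10, −0.00057 for Mrpl12, −0.65 for Mrpl17, −0.51 for Mrpl22, −1.15 for Mrpl23, −0.73 for Mrpl27, −0.32 for Mrpl28, −0.53 for Mrpl3, −0.42 for Mrpl37, −0.079 for Mrpl38, −0.11 for Mrpl4, −0.63 for Mrpl40, −0.91 for Mrpl44, −0.49 for Mrpl45, −0.86 for Mrpl46, −1.13 for Mrpl47, −0.97 for Mrpl48, −1.14 for Mrpl54, −0.48 for Mrps15, −0.074 for Mrps18a, −0.14 for Mrps18b, −2.07 for Mrps18c, −1.08 for Mrps21, −0.70 for Mrps22, −0.42 for Mrps28, −1.24 for Mrps30, −0.97 for Mrps35, −0.72 for Mrps36, −0.29 for Mrps9, −1.31 for Mrpl21, −1.76 for Mrps26 and −1.82 for Mrps27. Mrps18c turned to −0.63 without mitochondrial mRNAs, −0.10 when centred on the median and −0.53 under quantile normalization, Mrps26 to −0.32 without mitochondrial mRNAs and −0.43 under quantile normalization, and Mrps27 to −0.37 and −0.10. Mrpl52 turned to 0.15 under TPM, 0.054 without I/R replicate 1, 0.13 without I/R replicate 3 and 0.088 without both samples numbered 1, and its values without 1 sample ran from −0.28 to 0.13. Of 33 named genes, 10 lost their call without mitochondrial mRNAs and 10 under quantile normalization, 3 when centred on the median, 3 without a filter, 7 without sham replicate 2, 6 without sham replicate 3, 3 without I/R replicate 1, 1 without I/R replicate 2 and 1 without I/R replicate 3, with the direction kept in these. Mrpl21 and Mrpl54 gained a call at a mean of at least 5 FPKM, under TPM, with the block, without sham replicate 1 and without both samples numbered 1, and Mrpl52 was called lower when centred on cardiomyocyte markers. The causes of these changes in calls and values were not tested. Depth in fragments is unknown, and differences in members near the filter cannot be told from counting noise.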
